A study of Rattus norvegicus with 9 samples.

Results

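Kruppel-like factors (KLFs) were followed in RBL-2H3 cells (RBLs), a rat basophilic leukemia line that serves as a model of mast cells (MCs). The 10 genes were Klf2, Klf3, Klf4, Klf6, Klf7, Klf9, Klf10, Klf11, Klf13 and Klf16, out of 18006 genes with a value. Klf2 was picked for its rise in PF samples, selected on its own level there, so its values in comparisons with PF are given as a description with no test. The other 9 members were matched by gene symbol. The set as a whole was chosen with earlier results of these data known.

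KLFs are transcription factors whose C-terminal zinc fingers bind CACCC and related GC-rich elements in promoters, and what each member does to a gene depends on the proteins that its N-terminal part recruits. Klf2, Klf4, Klf6 and Klf7 belong to a class that mostly activates transcription through acetyltransferases. Klf3 is a repressor that recruits CtBP, and Klf9, Klf10, Klf11, Klf13 and Klf16 carry a domain that binds the Sin3A corepressor. In blood cells, Klf2 is known for keeping lymphocytes quiescent and for dampening inflammatory genes in myeloid and endothelial cells.

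RNA was sequenced from 3 control samples labelled untreated (Ctrl), 3 samples stimulated with antigen (IgE/DNP) and 3 samples that also had a pretreatment called PF. For IgE/DNP, the labels give 50 ng/ml of anti-DNP IgE for 12 h, then 100 ng/ml of the antigen DNP-HSA for 4 h. PF samples had the same IgE and antigen after 1 h of PF, an agent the labels do not identify. Their stimulation lasted 4, 5 and 6 h for replicates 1, 2 and 3 by the sample field but 4 h by the protocol field. That protocol text is the same for all 9 samples, so whether Ctrl cells received IgE is not settled. All groups are the same line. The labels do not state that the 3 samples of a group were separate cultures, so the p-values measure only the spread between these samples.

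The values are FPKM, fragments of a gene scaled to its length and to the mapped total of the sample. They summed to 573023 to 591539 FPKM in Ctrl and IgE/DNP samples and to 610206 to 630069 FPKM in PF samples. Steps between the lowest values put the relative depth of the samples between 0.973 and 1.04, from 3 to 8 genes a sample, and the number of reads is unknown. The labels call the cells blood corpuscles of peripheral blood. Among 11 MC markers, 9 had a value, with means of Kit of 228 to 283 FPKM and of the IgE receptor subunit Fcer1a of 424 to 482 FPKM, whereas the tryptases Tpsab1 and Tpsb2 had no value. Of 11 markers of other cells, Cd3e (6.74 to 9.52 FPKM) and Pecam1 (43.6 to 61.8 FPKM) were above 1 FPKM, 8 had a mean under 1 FPKM and Cdh5 had no value. Members were tested with limma on log2(FPKM + 1), among genes at 1 FPKM or more in at least 3 of the 6 samples compared, and a change was called at an adjusted p of at most 0.05. Folds on this scale understate the change of low genes.

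The KLF transcripts differed widely in level, and Klf6 alone made up most of the summed KLF signal. On the FPKM scale, which is per length, Klf6 was highest in every group, followed by Klf10 and Klf16. The 10 genes summed to 549 to 584 FPKM in Ctrl, 515 to 527 FPKM in IgE/DNP and 537 to 554 FPKM in PF samples. Klf6 took 73.0 to 74.6% of that sum in Ctrl, 77.2 to 78.5% in IgE/DNP and 83.3 to 84.0% in PF samples. The sum of the other 9 members was 148, 146 and 150 FPKM in the Ctrl samples. It was 114, 118 and 111 FPKM in the IgE/DNP samples and 91.1, 87.8 and 88.5 FPKM in the PF samples. The 3 groups did not overlap in this remainder, whereas the full sum in PF samples was above every IgE/DNP sample and overlapped the Ctrl samples. Fewer cells of a type and less RNA per cell cannot be told apart in such bulk samples. Klf2 took 0.0583 to 0.0908% of the full sum in Ctrl and 1.05 to 1.31% in PF samples.

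**Figure D1:**
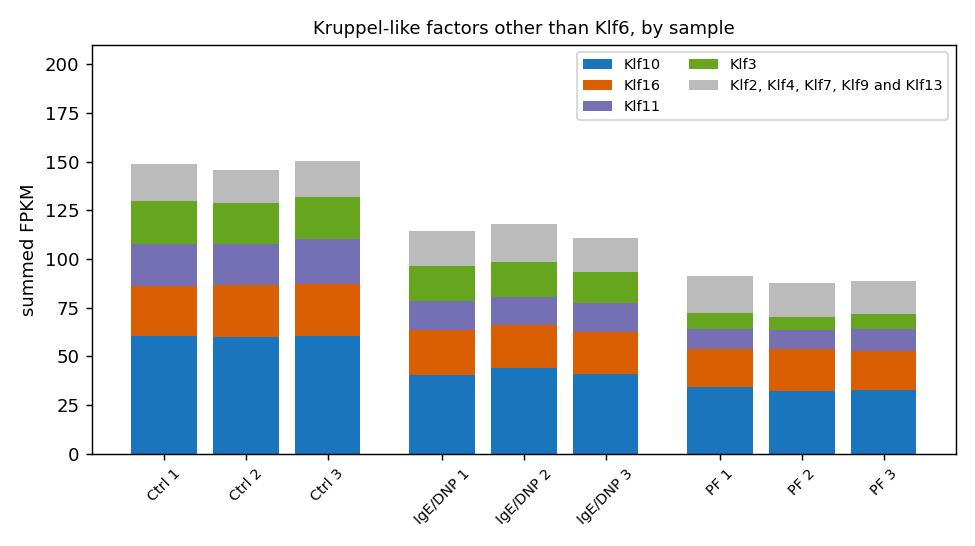
Summed FPKM of the Kruppel-like factors other than Klf6 in each of the 9 samples, with the colours giving the share of Klf10, Klf16, Klf11, Klf3 and the 5 lowest genes together. The bars are 146 to 150 FPKM high in Ctrl, 111 to 118 FPKM in IgE/DNP and 87.8 to 91.1 FPKM in PF samples.

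The order below Klf16 changed between groups. In Ctrl samples Klf11 and Klf3 followed with values that overlapped, then Klf7, Klf9, Klf13, Klf2 and Klf4 without overlap between neighbours. In IgE/DNP samples Klf3 was above Klf11, and no neighbours overlapped. In PF samples Klf11 stood above Klf3, Klf2 and Klf7, which overlapped in that order, and Klf9, Klf13 and Klf4 followed. Klf2 thus moved from ninth place to the level of Klf3 and Klf7.

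**Figure D2:**
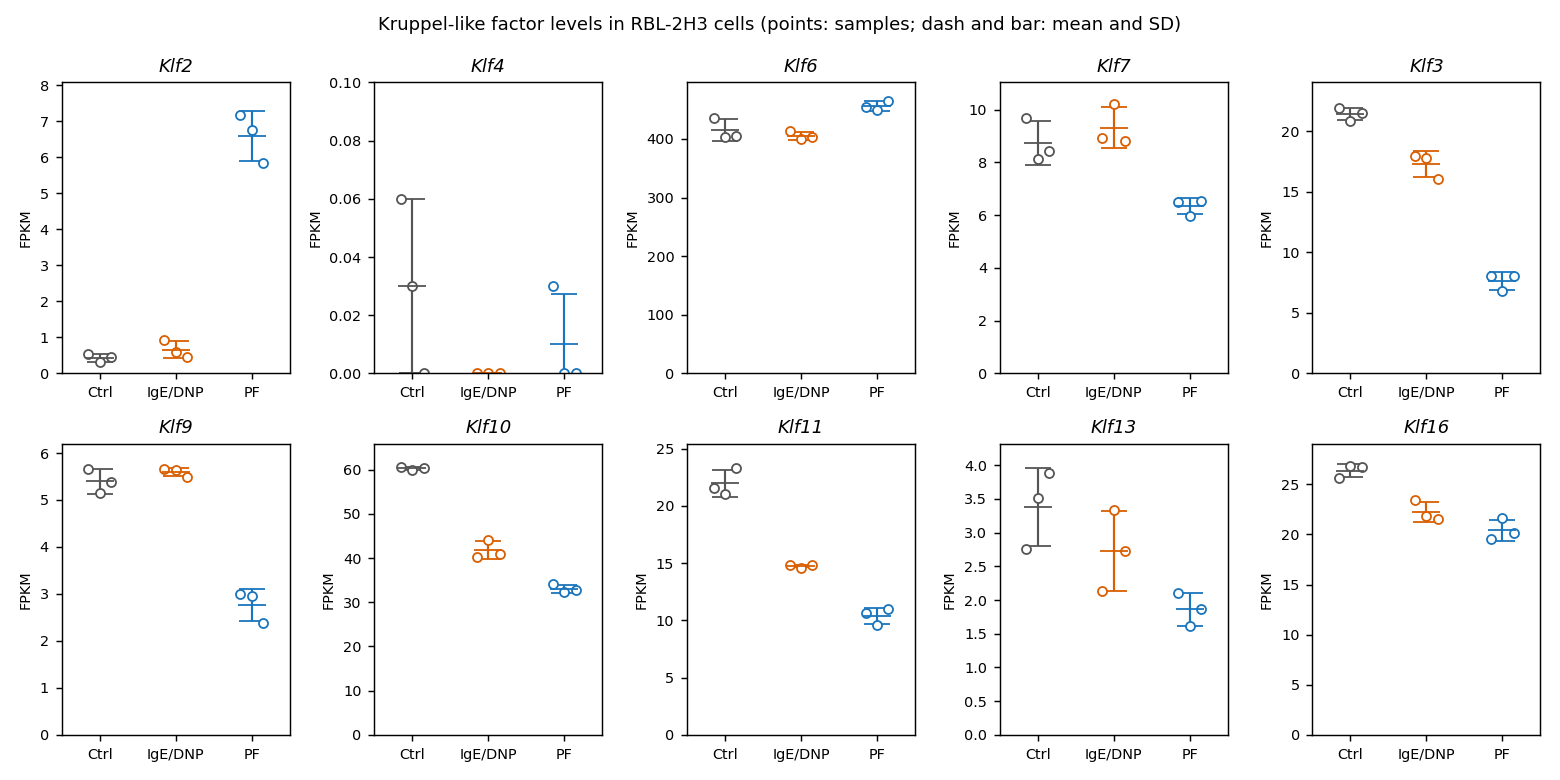
FPKM of the 10 Kruppel-like factors in the 3 samples of each group, each panel on its own linear axis from 0, with points for samples and a dash and bar for the mean and SD. Klf2 is under 1 FPKM in 6 samples and at 5.84 to 7.17 FPKM in PF samples, while Klf3, Klf9, Klf10 and Klf11 are lowest in PF samples.

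The DNA before the start of Klf6 and of Klf9 is shown. These genes were chosen because Klf6 is the most abundant member and, with values as deposited, was higher in PF samples, while Klf9 was lower. All 10 members matched RefSeq by gene identifier and 6 of them, all but Klf2, Klf10, Klf13 and Klf16, had an entry in its promoter table (rat build GRCr8), in which these windows are the 250 bases before the start. Capitals mark CCAAT or, on the other strand, ATTGG, a motif chosen after both sequences were read. The files were made on rn6 and hold no coordinates. The Klf6 window is chr17:69458479-69458728 on the minus strand, and the Klf9 window is chr1:230126396-230126645 on the plus strand.
Klf6: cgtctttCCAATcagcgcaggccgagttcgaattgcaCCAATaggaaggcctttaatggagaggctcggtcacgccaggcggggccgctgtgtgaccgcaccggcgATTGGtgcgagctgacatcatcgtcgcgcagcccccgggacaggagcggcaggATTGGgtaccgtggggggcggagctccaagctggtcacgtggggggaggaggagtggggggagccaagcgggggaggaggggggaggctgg
Klf9: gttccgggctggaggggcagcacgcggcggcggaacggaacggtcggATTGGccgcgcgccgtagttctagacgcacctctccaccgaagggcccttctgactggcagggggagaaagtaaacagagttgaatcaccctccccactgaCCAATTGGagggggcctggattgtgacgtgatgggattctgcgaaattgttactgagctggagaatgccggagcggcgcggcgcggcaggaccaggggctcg
The Klf6 window held 4 matches to CCAAT and the Klf9 window 3, of which 2 overlap in CCAATTGG. On both strands, 34.0% of the 33469 RefSeq rat windows of this length held at least 1 CCAAT. The Klf6 window also held the GC box GGGCGG (30.5% of all windows), the E box CACGTG (5.59%) and a CArG box (1.50%), and was 67.2% G and C. The Klf9 window, 63.6% G and C, held CACCC (49.2%), the FOXO motif GTAAACA (3.21%), the AP-1 motif TGANTCA (6.34%) and the shorter CRE element TGACG (18.2%). Its AP-1 match overlapped its CACCC match. The full CRE TGACGTCA (1.59%) was found in neither. These are matches of letters, and no binding was measured.

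The first comparison, IgE/DNP against Ctrl, addresses how KLF transcripts stand 4 h after antigen. Of the 8 members tested, 4 fell, namely Klf3, Klf10, Klf11 and Klf16, and none rose by limma (adjusted p, threshold 0.05) or at an unadjusted p under 0.05. Over all 10392 genes tested, 14.4% were called lower and 14.7% higher. The 8 members had a median log2 change of -0.24, against -0.01 for all genes tested. The groups did not overlap for these 4 members, and for 45.8% of all genes tested. With 3 samples against 3, an exact permutation test gives 0.1 at the least, and it gave that value for each of them.

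Klf10 and Klf11, which TGF-beta induces in many cells, had the largest falls. Klf10 was at 60.7, 59.9 and 60.4 FPKM in Ctrl samples and at 40.3, 44.2 and 41.0 FPKM in IgE/DNP samples. Every IgE/DNP sample was far below the narrow Ctrl range. The log2 change of Klf10 was -0.52 (standard error, SE, 0.0419, limma adjusted p = 0.000139). Klf11 was at 21.6, 21.0 and 23.3 FPKM in Ctrl samples and at 14.8, 14.6 and 14.8 FPKM in IgE/DNP samples. Its 3 IgE/DNP samples nearly coincided, well under the lowest Ctrl sample. The log2 change of Klf11 was -0.54 (SE 0.05, limma adjusted p = 0.000251), which placed it 122nd from the lowest of 10392 genes, with Klf10 147th.

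Klf3 and Klf16 fell by less. Klf3 was at 21.9, 20.9 and 21.5 FPKM in Ctrl samples and at 18.0, 17.8 and 16.1 FPKM in IgE/DNP samples, a log2 change of -0.29 (SE 0.0542, limma adjusted p = 0.00535). Klf16, a factor of the Sin3A-binding class, was at 25.6, 26.8 and 26.7 FPKM in Ctrl samples and at 23.4, 21.8 and 21.5 FPKM in IgE/DNP samples. Its log2 change was -0.24 (SE 0.0465, limma adjusted p = 0.00703). Neither gene had an IgE/DNP sample within its Ctrl range.

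The other members were not called after antigen. Klf6, an early-response gene in many cells, was at 436, 403 and 405 FPKM in Ctrl and at 413, 400 and 404 FPKM in IgE/DNP samples, so that the groups overlapped. The log2 change of Klf6 was -0.03, with a 95% interval of -0.12 to 0.06. Klf7 had 0.09 with an interval of -0.10 to 0.27, and Klf9, a gene known for its induction by glucocorticoid and thyroid hormone, had 0.05 with an interval of -0.10 to 0.19. Klf13 was the least precise, at 2.75, 3.51 and 3.88 FPKM in Ctrl and 2.13, 3.33 and 2.72 FPKM in IgE/DNP samples. Its log2 change of -0.24 had an interval of -0.56 to 0.08. The 4 intervals included 0, and those of Klf7 and Klf9 left room for a rise of 0.27 and 0.19.

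Klf2 and Klf4 were below the filter in this comparison. Klf2 was at 0.530, 0.320 and 0.460 FPKM in Ctrl samples and at 0.920, 0.590 and 0.460 FPKM in IgE/DNP samples. The groups met at 0.460 FPKM, and an exact permutation test on log2(FPKM + 1) gave p = 0.3 for the difference of 0.20. A fit without the filter put its interval at -0.07 to 0.47 (limma adjusted p = 0.318). Klf4, close kin of Klf2, was at 0.0600, 0.0300 and 0 FPKM in Ctrl samples, was listed at 0 in all 3 IgE/DNP samples, and had 0.0300, 0 and 0 FPKM in PF samples. No difference in Klf4 could be read at such values.

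In the second comparison, PF was set against IgE/DNP, in cells that all had IgE and antigen. By the sample field, PF replicates 2 and 3 were also stimulated for longer, 5 and 6 h against 4 h. If that field holds, pretreatment and time cannot be told apart in those samples. Klf2, picked for its rise in PF, is given below as a description with no test. Of the 8 other members tested, 1 rose (Klf6) and 6 fell (Klf3, Klf7, Klf9, Klf10, Klf11 and Klf13), by limma (adjusted p, threshold 0.05). Over the 10329 genes tested, 18.1% were called higher and 30.7% lower. The 8 members had a median log2 change of -0.42, against -0.04 for all genes, and 12.6% of all genes were beyond 0.5 in either direction. The groups did not overlap for the 7 called members, and for 57.6% of all genes tested. The balance of calls over all genes moved with the scaling. Of all called genes 37.1% were higher in PF with values as deposited, 51.5% after scaling by median ratios and 16.8% once every sample had the same sum, the mean of those deposited (called equal sums from here), which put the median of all genes at -0.13. Over the same samples the 9 MC markers with a value summed to 5247 to 5341 FPKM in IgE/DNP and 5398 to 5614 FPKM in PF, with 2 called higher, 3 called lower and none listed at 0. The 10 markers of other cells with a value summed to 65.2 to 70.0 FPKM and 53.8 to 60.2 FPKM, most of it Pecam1, which fell by 0.33 (limma adjusted p = 0.000801), and the rest mainly Cd3e, at means of 8.46 and 8.97 FPKM. The part of these shifts in the KLF values was not tested.

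Klf2 was at 7.17, 6.77 and 5.84 FPKM in the PF samples, while no other sample reached 1 FPKM. The lowest PF sample, labelled 6 h in the sample field, was still far above the highest IgE/DNP sample at 0.920 FPKM. The mean level was 6.59 ± 0.682 FPKM (SD, n = 3) in PF against 0.657 ± 0.237 FPKM (SD, n = 3) in IgE/DNP samples, a ratio of 10.0. On the log2(FPKM + 1) scale the difference was 2.20, the second highest of 10329 genes, and with a pseudocount of 0.1 it was 3.19. Klf2 passed the filter only through its PF samples, and it was chosen for this pattern.

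Klf6 rose slightly. It was at 455, 449 and 465 FPKM in PF samples, above the highest IgE/DNP sample at 413 FPKM. The log2 change was 0.17 (SE 0.0302, limma adjusted p = 0.00162). This call depended on the scaling, since with equal sums it was 0.07 (limma adjusted p = 0.0993). Klf7, also of the activating class, went the other way. It was at 8.94, 10.2 and 8.82 FPKM in IgE/DNP and at 6.49, 5.98 and 6.52 FPKM in PF samples, with no overlap, a log2 change of -0.49 (SE 0.0721, limma adjusted p = 0.000568).

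Klf3 had the largest fall of the family. It was at 8.06, 6.82 and 8.03 FPKM in PF samples, all far under the 16.1 FPKM of the lowest IgE/DNP sample. The ratio of means was 0.441 and the log2 change -1.09 (SE 0.0748, 95% interval -1.26 to -0.92, limma adjusted p = 7.04e-06). Klf9 followed. It was at 5.66, 5.63 and 5.50 FPKM in IgE/DNP and at 2.99, 2.95 and 2.38 FPKM in PF samples. Its groups were well apart, the ratio of means was 0.496, and the log2 change was -0.81 (SE 0.0835, limma adjusted p = 7.54e-05).

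Klf10 and Klf11, which were already lower in IgE/DNP than in Ctrl samples, were lower again with PF. Klf10 was at 34.1, 32.4 and 32.8 FPKM in PF samples, below all IgE/DNP samples, a log2 change of -0.33 (SE 0.0452, limma adjusted p = 0.000405). Klf11 was at 10.6, 9.63 and 11.0 FPKM in PF samples, also below all IgE/DNP samples, with -0.46 (SE 0.0578, limma adjusted p = 0.00023). For both, each group stood apart from the other two.

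Klf13 and Klf16 were less clear. Klf13, a factor that binds the Ccl5 promoter in T cells, was at 2.10, 1.61 and 1.87 FPKM in PF samples, just under the lowest IgE/DNP sample at 2.13 FPKM. Its log2 change was -0.37 (SE 0.127, limma adjusted p = 0.0374). The call was lost with no filter (limma adjusted p = 0.0980), with median ratios (limma adjusted p = 0.0546) and when any 1 of 4 samples was left out. These were IgE/DNP replicates 2 and 3 and PF replicates 2 and 3, with limma adjusted p of 0.127, 0.0863, 0.112 and 0.0746. Klf16 was at 19.6, 21.6 and 20.1 FPKM in PF samples, and its highest PF sample lay within the IgE/DNP range. Its log2 change of -0.12 had a 95% interval of -0.24 to 0.00 (limma adjusted p = 0.0968). It was called with equal sums (-0.21, limma adjusted p = 0.00825) and without PF replicate 2 (-0.16, limma adjusted p = 0.0463).

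**Figure D3:**
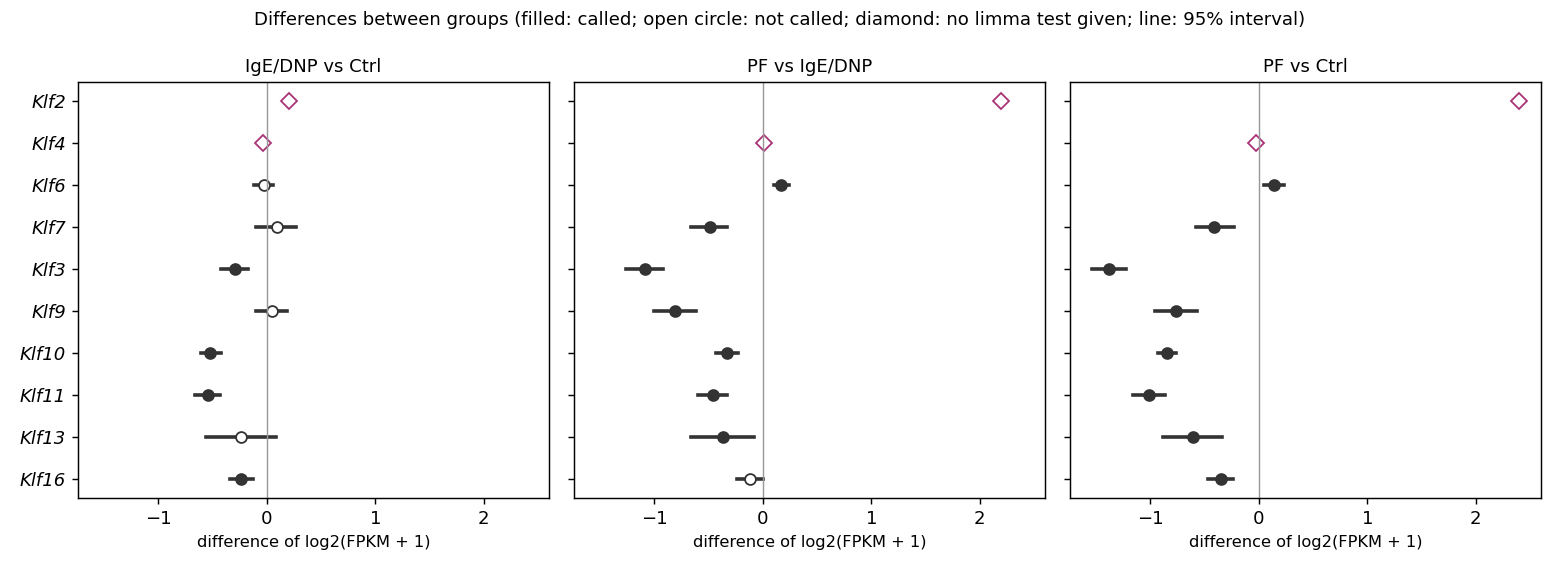
Differences of log2(FPKM + 1) for the 10 Kruppel-like factors in the 3 comparisons, where filled circles passed limma at an adjusted p of at most 0.05, open circles did not, lines are 95% intervals and diamonds have no limma test given. Klf2 lies at 2.20 and 2.40 in the comparisons with PF, whereas every other called member except Klf6 lies below 0.

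The third comparison, PF against Ctrl, shares its samples with the other comparisons and is given for the size of the combined difference. All 8 tested members other than Klf2 were called, with 1 higher (Klf6) and 7 lower. Over the 10361 genes tested, 23.1% were called higher and 34.6% lower. Of the called genes 40.0% were higher as deposited, 51.1% with median ratios and 26.7% with equal sums. The 8 members had a median of -0.69, all genes one of -0.05, and the groups did not overlap for the 8 members and for 64.8% of all genes tested. Klf3 had a log2 change of -1.38 (SE 0.0685, limma adjusted p = 1.89e-06), a ratio of means of 0.356 and the 84th place from the lowest of all genes. Klf11 had -1.01 (SE 0.0643, limma adjusted p = 5.91e-06), Klf10 had -0.85 (SE 0.0383, limma adjusted p = 1.35e-06) and Klf9 had -0.76 (SE 0.0870, limma adjusted p = 0.000124). Klf13, Klf7 and Klf16 had -0.61, -0.41 and -0.35, with intervals of -0.88 to -0.34, -0.58 to -0.23 and -0.47 to -0.24.

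The rise of Klf6 from Ctrl was small, with a log2 change of 0.14 (SE 0.0410, limma adjusted p = 0.0180). It was lost with equal sums (0.06, limma adjusted p = 0.298) and when any 1 of Ctrl replicates 2 and 3 and PF replicates 1 and 3 was left out, with limma adjusted p of 0.0593, 0.0557, 0.0508 and 0.0539. For Klf2 the ratio of means was 15.1 and the difference 2.40, in 6th place of 10361 genes, or 3.66 with a pseudocount of 0.1.

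By these calls Klf3, Klf10 and Klf11 were lower after antigen and lower again with PF. Klf7, Klf9 and Klf13 were called lower with PF and not after antigen. Klf16 was called lower after antigen and not with PF against IgE/DNP, and Klf6 was called higher with PF. The PF calls of Klf6, and of Klf13 against IgE/DNP, were lost under some alternatives, and Klf16 was called under some. Klf2 had no test with PF, and Klf4 was too low to test. Whether a member's step with PF differed from its step after antigen was not tested, and both steps use the IgE/DNP samples.

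**Figure D4:**
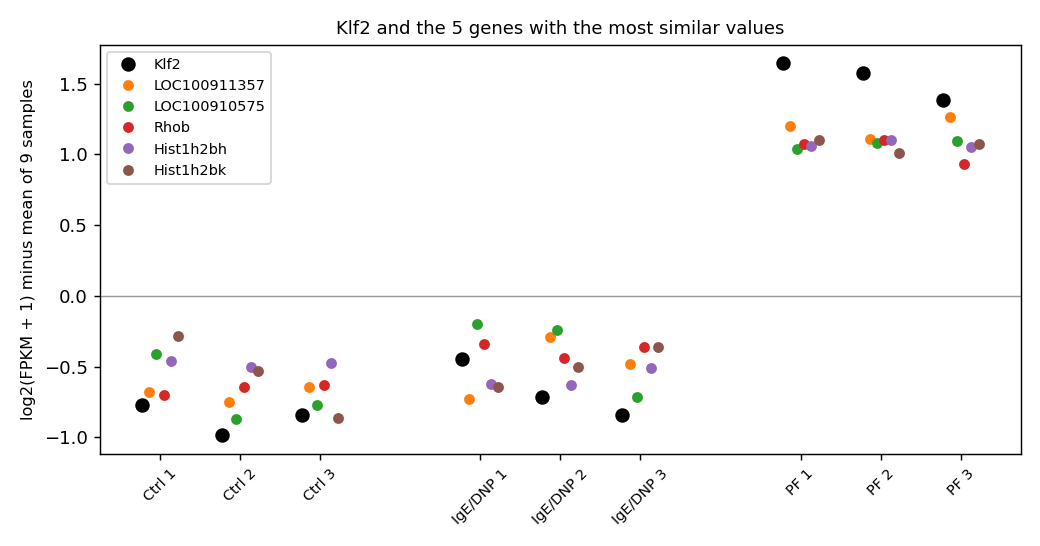
Deviation of log2(FPKM + 1) from the mean of 9 samples for Klf2 and the 5 genes with the smallest root-mean-square difference from it, by sample. All 6 genes are below 0 in the Ctrl and IgE/DNP samples and above 0 in the 3 PF samples.

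Among 10279 genes with a mean of at least 1 FPKM, the 5 whose pattern over the 9 samples was most like that of Klf2 were named by the root-mean-square difference of the centred log2 values. They were LOC100911357 (0.319), LOC100910575 (0.355), Rhob (0.370), Hist1h2bh (0.378) and Hist1h2bk (0.404). Rhob was at 62.2 ± 1.64 FPKM in Ctrl, 75.5 ± 2.81 FPKM in IgE/DNP and 204 ± 12.9 FPKM in PF samples (SD, n = 3 each). Hist1h2bh and Hist1h2bk are copies of the histone H2B gene, whose near-identical sequences can split or share reads, so their levels are uncertain. Since the measure follows Klf2, which was chosen for its PF level, the likeness is a description.

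Other genes of the KLF and SP family added little. Of 8 further KLF genes looked up, Klf14, Klf17 and Klf18 had no value, and Klf5, Klf8, Klf12 and Klf15 did not exceed 0.05 FPKM in any sample. Klf1, the erythroid KLF, had means of 1.09, 1.04 and 1.32 FPKM in Ctrl, IgE/DNP and PF samples and was not called in any comparison. Of 9 SP factors, which bind GC boxes with similar zinc fingers, 4 were tested. Sp1 and Sp2 fell after antigen by 0.21 and 0.19 on the log2 scale (limma adjusted p of 0.0111 and 0.0102). Of all genes tested, 14.4% were called lower there. With PF against IgE/DNP 1 of the 4 passed, where 30.7% of all genes were called lower and 18.1% higher. Sp2 went from 28.0 ± 0.537 to 20.1 ± 0.921 FPKM (SD, n = 3 each), which is -0.46 on the log2 scale (SE 0.0458, limma adjusted p = 6.34e-05).

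Partners through which KLFs act were looked up next. Of 12 cofactors and ubiquitin ligases, 11 were tested. After antigen 1 rose, the Klf3 partner Ctbp1 with 0.18, and 2 fell, Sin3a with -0.24 and Ep300 with -0.16, beside 14.7% and 14.4% of all genes. With PF against IgE/DNP 2 rose and 5 fell, beside 18.1% and 30.7% of all genes. The acetyltransferase gene Crebbp had -0.55 (SE 0.0794, limma adjusted p = 0.000521), with 5.39, 4.84 and 5.94 FPKM in PF against 8.36, 8.84 and 7.87 FPKM in IgE/DNP samples. Fbxw7, a ubiquitin ligase subunit known to mark Klf2 for degradation, had -0.54 (limma adjusted p = 1.93e-05), from 21.7 ± 0.191 to 14.6 ± 0.454 FPKM (SD, n = 3 each). Smurf1, another ligase known to act on Klf2, had -0.50 (limma adjusted p = 0.000126), and Wwp1, likewise a ligase of Klf2, had -0.08 with a 95% interval of -0.22 to 0.06 (limma adjusted p = 0.30). The histone deacetylase gene Hdac2 rose by 0.36 (limma adjusted p = 0.000712). In PF against Ctrl 3 of the 11 rose and 6 fell, beside 23.1% and 34.6% of all genes.

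The kinase route from MEK5 over ERK5 to MEF2 factors is a known inducer of Klf2 in endothelium and T cells. Of its 8 genes 7 were tested, and 4 fell by limma in each comparison, where 14.4%, 30.7% and 34.6% of all genes were called lower. None rose, also at an unadjusted p under 0.05. Map3k3, a kinase upstream of MEK5, was at 13.7, 13.7 and 13.8 FPKM in IgE/DNP and 8.62, 8.52 and 8.02 FPKM in PF samples, a log2 change of -0.65 (SE 0.0519, limma adjusted p = 1.68e-05). Mapk7, which encodes ERK5, had -0.40, Map2k5, which encodes MEK5, had -0.36 and Mef2d had -0.34 (limma adjusted p of 0.00257, 0.00254 and 0.00112). In IgE/DNP against Ctrl the same 4 genes fell by 0.16 to 0.34.

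FOXO factors are known to drive Klf2 in T cells. Of 12 FOXO genes and target genes 10 were tested. After antigen 1 rose, Foxo1 with 0.33 (limma adjusted p = 0.00283), and 4 fell, including Pik3ip1, an inhibitor of PI3K, with -0.50 (limma adjusted p = 0.000388). With PF against IgE/DNP 6 fell by limma. None rose, also at an unadjusted p under 0.05, where Sesn3 was lower as well (-0.13, limma adjusted p = 0.0604). Of all genes tested, 14.4% were called lower and 14.7% higher after antigen, and 30.7% and 18.1% with PF against IgE/DNP. Foxo3 was at 17.9, 19.0 and 16.4 FPKM in IgE/DNP and at 5.99, 5.74 and 6.59 FPKM in PF samples, a log2 change of -1.40 (SE 0.0712, limma adjusted p = 1.36e-06). The others of the 6 were Pik3ip1 with -0.78, the cell cycle inhibitor gene Cdkn1b with -0.77, Foxo4 with -0.62, the cyclin gene Ccng2 with -0.61 and Foxo1 with -0.38. In PF against Ctrl 7 of the 10 fell and none rose, again on either count. Of all genes tested, 34.6% were called lower and 23.1% higher there.

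Genes known as targets of KLF2 or KLF4 in lymphocytes, endothelium or epithelium were looked up as well. Of the 8 genes, 3 were tested in PF against IgE/DNP, of which 1 rose and 2 fell, beside 18.1% and 30.7% of all genes. S1pr1, the lymphocyte exit receptor, was at 5.23, 5.60 and 4.65 FPKM in IgE/DNP and at 2.61, 2.39 and 2.32 FPKM in PF samples, a log2 change of -0.84 (SE 0.0834, limma adjusted p = 6.12e-05). It had risen after antigen by 0.41 (SE 0.0788, limma adjusted p = 0.00667). Cdkn1a, which encodes the cell cycle inhibitor p21, fell with PF by 0.52 (limma adjusted p = 7.79e-05). Nos3, the endothelial nitric oxide synthase gene, was at 0.610, 0.640 and 0.650 FPKM in IgE/DNP and at 1.23, 1.33 and 1.22 FPKM in PF samples. It passed the filter only through its PF samples, so no test is given. Itgb7, an integrin subunit of homing lymphocytes and MCs, rose by 0.16 with values as deposited (limma adjusted p = 0.00532). Klf6, with a larger rise, was not called with equal sums, a scaling for which the value of Itgb7 is not given. Thbd and Cdkn1c were below the filter and Ccr7 had no value.

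TGF-beta signalling genes, several of which act upstream of Klf10 and Klf11, were also looked up. Of 8 genes 6 were tested. After antigen 3 rose by limma and none fell, beside 14.7% and 14.4% of all genes. Smad4 was the 1 gene lower at an unadjusted p under 0.05 (-0.13, limma adjusted p = 0.0576). Among the 3 were the receptor gene Tgfbr1 with 0.50 (limma adjusted p = 0.000312) and the inhibitory Smad7 with 0.36 (limma adjusted p = 0.0196). With PF against IgE/DNP the ligand gene Tgfb1 rose by 0.15 with values as deposited (limma adjusted p = 0.0134). The larger rise of Klf6 was not called with equal sums, and the value of Tgfb1 under that scaling is not given. The receptor gene Tgfbr2 fell by 0.87 (limma adjusted p = 7.93e-06), from 12.5 ± 0.661 to 6.40 ± 0.268 FPKM (SD, n = 3 each). Smad4 was again lower only at an unadjusted p under 0.05 (-0.17, limma adjusted p = 0.0663). Of all genes tested, 18.1% were called higher and 30.7% lower in this comparison.

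**Figure D5:**
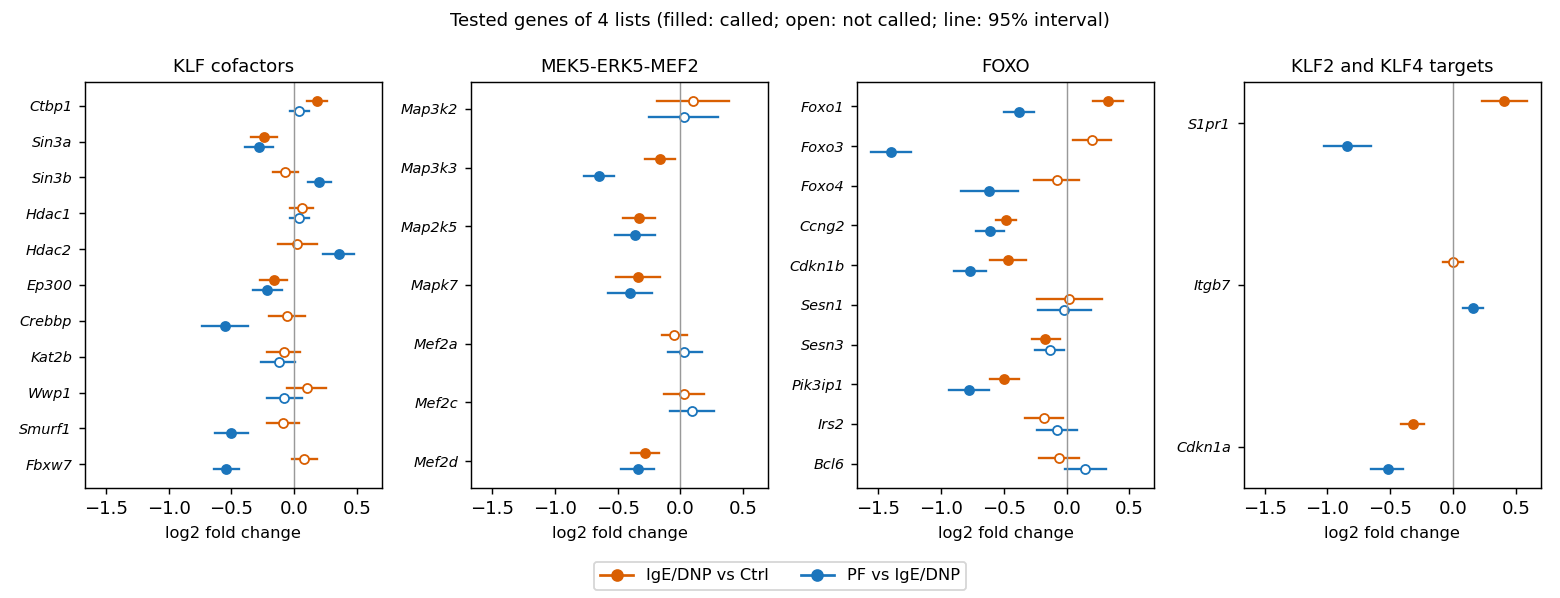
Log2 fold changes of the tested genes in 4 lists for IgE/DNP against Ctrl (orange) and PF against IgE/DNP (blue), where filled circles passed limma at an adjusted p of at most 0.05 and lines are 95% intervals. Foxo3 lies lowest at -1.40 with PF, and the 4 called genes of the MEK5-ERK5-MEF2 list lie below 0 in both comparisons.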

How the data were processed

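Total RNA of 9 RBL-2H3 samples was profiled. By their methods the authors sequenced on a BGISEQ-500, filtered reads with SOAPnuke, mapped them with HISAT2 2.0.4, quantified genes with RSEM 1.2.12 over Bowtie2 2.2.5 and tested genes with DESeq2. The submitters' processing notes name the build rn6. The authors deposited 1 value per gene and sample, read here as FPKM because the heading names no unit and the values have decimals and unequal sums. Of 38490 genes listed, 20484 had no value in any sample.

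Groups follow the sample titles. limma 3.58.1 in R 4.3.3 (lmFit, eBayes with trend) was run per comparison on log2(FPKM + 1), keeping genes that reached 1 FPKM in 3 or more samples, with Benjamini-Hochberg adjustment over all genes tested and a threshold of 0.05. The planned test assumed counts, and the values are not counts, so its written fallback was used. The fit was also run on simulated data with independent noise in each sample. That run cannot show whether the p-values hold for samples that are not separate cultures. Exact permutation tests were two-sided. Same-numbered samples correlated best with each other in PF against Ctrl (6 of 6 samples) but not in the other comparisons. The main fits used no pairing. Named genes were the 10 members, list genes that passed and changed by 0.5 or more on the log2 scale in either direction, at most 4 others per list, and the 5 genes most like Klf2. The values of 1 gene looked up are not reported here. The members and lists were chosen with earlier results of these data known. Alternatives were a pseudocount of 0.1, no filter, all 9 samples in the fit, a replicate block, scaling by median ratios or to equal sums (the mean of those deposited), and each sample left out in turn.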

Additional observations from a re-analysis of the deposited data

How the results depend on the processing

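The number of KLFs called after antigen was 4 under every alternative run. With PF against IgE/DNP it was 7, or 6 with no filter, with median ratios and with the replicate block. It was 6 to 7 with a single sample left out. With equal sums the number stayed 7, but Klf6 was no longer called and Klf16 was. With PF against Ctrl it was 8, or 7 with equal sums, and 7 to 8 with a single sample left out. The changes concerned Klf6, Klf13 and Klf16, whose values stand beside their results, and the causes were not tested. No called member's direction turned under these alternatives. Klf6, which was not called after antigen, went from -0.03 to 0.00, just above 0, without Ctrl replicate 1, and ranged from -0.05 to 0.00 with a single sample left out. Same-numbered samples did not deviate together in every pair, with correlations across genes of -0.0739 to 0.0514 for IgE/DNP against Ctrl (2 of 6 samples correlated best with their own number), -0.0822 to 0.00049 for PF against IgE/DNP (0 of 6) and 0.083 to 0.189 for PF against Ctrl (6 of 6). With the replicate block the members called were 4, 6 and 8, and 2697, 4675 and 6009 of all genes were called against 3031, 5042 and 5975 without it. The block took away the call of Klf13 with PF against IgE/DNP (limma adjusted p = 0.0620). Depth in reads is unknown, so values near 0, such as those of Klf4, can be given no counting error, and 3 samples per group limit the precision of all others. DESeq2 on counts was not run because the values are not counts.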
